A study of Mus musculus with 48 samples.

Results

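The active zone scaffold genes are 10 genes of 5 families, Bsn and Pclo, Rims1 and Rims2, Erc1 and Erc2, Unc13a and Unc13b, and Ppfia2 and Ppfia3. They were chosen by symbol, though with earlier results of these data known, and each matched 1 of the 48526 genes in the count table. RNA came from the cortex of 12 wild-type male C57BL/6JRj mice. They were 4 young mice of 3 weeks (3w), 4 adults of 5 months (5m) and 4 old mice, with an age field of 18 months (18m). The age field gives the middle group as 6 months, while the treatment protocol gives 5 months, which is used here. Each mouse gave 4 libraries of rRNA-depleted RNA. They came from total homogenate (TH) and from synaptosomes (SYN), the pinched-off synaptic terminals that are collected from a sucrose gradient, each as input RNA and as the RNA of the pellet beneath a sucrose cushion, which holds ribosomes (SC). Cycloheximide, which arrests ribosomes on mRNA, was in the lysis buffer of the SC samples. The 12 groups of 4 mice are called input_TH, SC_TH, input_SYN and SC_SYN at each age, and the labels name no allele or agent given to any mouse. A homogenate mixes all cells of the cortex, so fewer cells of a type and less RNA per cell cannot be told apart in these values.

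The active zone is the stretch of presynaptic membrane at which vesicles dock, become release-ready and fuse. Bassoon and piccolo, encoded by Bsn and Pclo, are giant scaffold proteins of this site. RIM proteins (Rims1, Rims2) tie calcium channels to Rab3 on vesicles, ELKS proteins (Erc1, Erc2) bind RIM and bassoon, Munc13 proteins (Unc13a, Unc13b) prime vesicles for fusion, and liprin-alpha proteins (Ppfia2, Ppfia3) help to assemble the site.

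All 10 genes are long. Their exonic length had a median of 11763 bp against 4683 bp for the 13243 protein-coding genes with a mean of at least 10 counts, and 10 of 10 lay above that median. The GC content of the longest transcript was above the median of the same genes in 4 of 10. In GRCm38 with GENCODE M21, Rims1 lies at chr1:22286251-22805994 on the minus strand, Bsn at chr9:108096022-108190384 on the minus strand and Erc1 at chr6:119570796-119848167 on the minus strand. The strand setting used to count these libraries is not given in the sources used here, so reads of overlapping genes may not be told apart. Such overlaps took 24.5% of the exonic length of Ppfia2, 11.8% of Erc1, 4.12% of Pclo and 3.92% of Unc13a, at most 1.42% of Bsn, Erc2 and Ppfia3, and none of Rims1, Rims2 and Unc13b. The lowest count of a member in any library was 39 (Unc13b) and the highest 58726 (Bsn).

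RefSeq promoters were matched for 9 of the 10 genes, all but Rims2. The 250 bases before the RefSeq start (build GRCm38.p6, minus strand, 5′ to 3′) are shown for Rims1, Erc1 and Bsn. Rims1 is the gene whose RNA fell from young to adult mice in every fraction. Erc1 is a gene that fell with age in TH, and Bsn is the most abundant gene. Capitals mark the GC box GGGCGG, the letters bound by Sp-family factors, which was searched on both strands.
Rims1, chr1:22806159-22806408: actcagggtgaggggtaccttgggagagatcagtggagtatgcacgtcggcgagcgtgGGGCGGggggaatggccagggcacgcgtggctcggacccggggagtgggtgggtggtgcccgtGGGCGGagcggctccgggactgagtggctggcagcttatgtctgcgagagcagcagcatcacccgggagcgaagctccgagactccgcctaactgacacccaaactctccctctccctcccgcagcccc
Erc1, chr6:119848151-119848400: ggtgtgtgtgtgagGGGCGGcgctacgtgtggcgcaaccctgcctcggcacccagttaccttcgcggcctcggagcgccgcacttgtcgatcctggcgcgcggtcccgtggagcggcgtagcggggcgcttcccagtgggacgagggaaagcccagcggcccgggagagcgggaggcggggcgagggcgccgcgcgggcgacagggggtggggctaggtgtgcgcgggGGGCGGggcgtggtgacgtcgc
Bsn, chr9:108190384-108190633: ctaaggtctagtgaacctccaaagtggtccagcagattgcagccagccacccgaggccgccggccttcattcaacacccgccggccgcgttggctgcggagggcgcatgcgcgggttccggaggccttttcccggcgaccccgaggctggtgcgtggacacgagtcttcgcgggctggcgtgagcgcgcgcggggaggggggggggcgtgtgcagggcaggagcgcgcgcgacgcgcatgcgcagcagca
The GC box was found in 7 of 9 member promoters and in 32.7% of 32851 promoters of the same length. It occurred 2 times before Rims1, 2 times before Erc1 and not before Bsn. GC content was 68.0% before Rims1, 76.0% before Erc1 and 71.6% before Bsn, against a median of 52.4% over all promoters. The TATA box TATAAA was found in 0 of 9 member promoters and in 12.4% of all, the CCAAT box CCAAT in 3 of 9 and 33.8%, and the cAMP response element core TGACG in 3 of 9 (Erc1, Unc13a and Ppfia3) and 17.8%. These matches describe the letters of the window only.

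Libraries held between 1780267 and 18590040 counts on genes, with the smallest depth in input_SYN (median 3756951) and a median of 7298371 in SC_SYN. Libraries were scaled by TMM, and values are given as CPM, a count scaled to a common library size. Scaling by library size instead moved the median log2 fold change of all genes in SYN against TH by between -0.65 and -0.53, and the share of called genes that were higher in SYN from between 44.6% and 49.0% to between 20.5% and 25.4%. Differences between SYN and TH are therefore relative to that scale. The summed level of 7 neuronal markers was 3411 CPM in input_TH and 9552 CPM in input_SYN at 3w, and that of 6 astrocyte markers 4621 and 14670 CPM. Gene by gene, 3 of the 7 neuronal markers were higher and 3 lower in input_SYN than in input_TH at 3w (median log2 fold change 0.03), and 5 of 7 were lower in SC_SYN than in SC_TH at each age (medians between -0.61 and -0.44). The summed level of 5 nuclear RNAs was between 15490 and 18200 CPM in input_TH and between 1534 and 4168 CPM in input_SYN, and 4 endothelial markers were between 110 and 184 CPM in input_TH and between 2.86 and 9.90 CPM in input_SYN. None of these markers was at 0 in a group. Their part in the results was not tested.

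Levels per kb divide by the merged exons of all annotated transcripts of a gene, 22746 bp for Unc13b and 16271 bp for Erc1. On that scale Bsn had the highest mean level of the 10 genes in all 12 groups, and Unc13b the lowest in 11 of 12. In CPM without this divisor, Erc1 had a lower mean than Unc13b in input_TH at each age (90.3 against 112 CPM at 3w). In input_TH at 5m, Bsn had 73.5 ± 5.18 CPM per kb (SD, n = 4) and no other gene came near it. Unc13a followed with 36.3 ± 2.17 and Rims1 with 32.9 ± 2.11 CPM per kb, and these neighbours overlapped. Pclo (24.5 ± 2.27) and Ppfia3 (22.2 ± 0.976) overlapped as well. Erc2 had 16.9 ± 1.03, Rims2 9.48 ± 0.501 and Ppfia2 8.53 ± 0.491 CPM per kb, of which the last pair overlapped, and Unc13b (4.77 ± 0.230) and Erc1 (4.77 ± 0.0564) could not be ordered. In input_SYN at 5m, the order was Bsn (215 ± 14.0), then Rims1 (65.7 ± 5.75), Ppfia3 (59.4 ± 5.67) and Pclo (53.1 ± 5.03), whose libraries overlapped from neighbour to neighbour, then Unc13a (42.0 ± 1.86). Rims2 (11.3 ± 0.703) and Erc2 (10.04 ± 0.344), which overlapped, and Erc1 (4.38 ± 0.248) and Ppfia2 (4.12 ± 0.484), which overlapped too, and Unc13b (1.44 ± 0.0850 CPM per kb) were lower. At 3w in SC_SYN the first place was not clear, since the libraries of Bsn (98.2 ± 18.2 CPM per kb) and Rims1 (75.1 ± 7.10) overlapped. Bsn took between 29.9% and 58.3% of all counts on the 10 genes in a library.

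**Figure D1:**
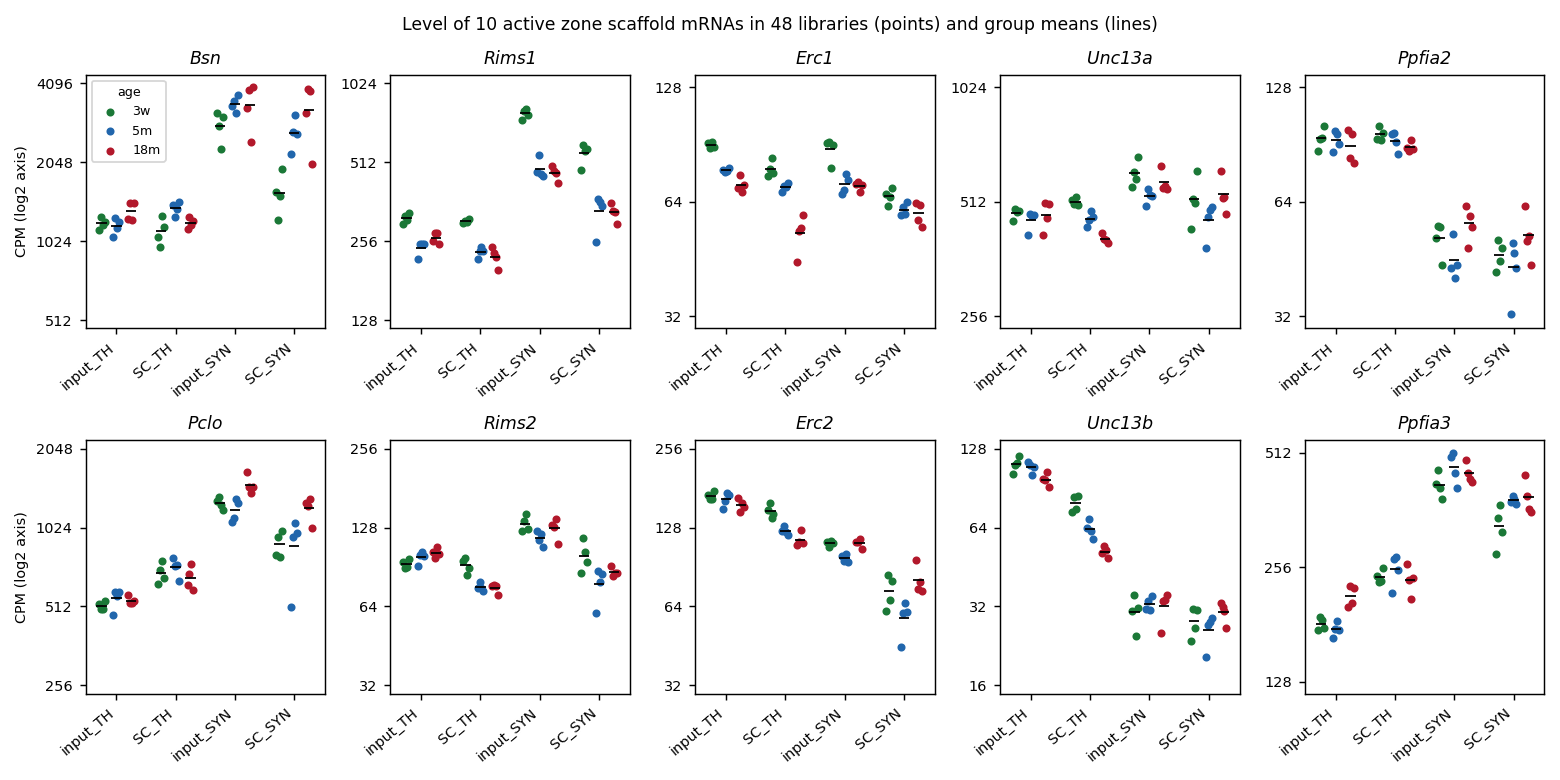
Level of each member in CPM (log2 axis) in the 48 libraries, by fraction and age, with each point 1 library and each line the mean of 4 mice. Bsn, Pclo, Rims1 and Ppfia3 sit higher in input_SYN than in input_TH at every age, while Unc13b, Erc2 and Ppfia2 sit lower, and Rims1 is highest at 3w in every fraction.

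The comparison of SYN with TH asks which mRNAs are richer in the synaptic preparation. The 10 genes did not move together. In input RNA, Bsn, Pclo, Rims1 and Ppfia3 were higher in SYN at every age, with log2 fold changes between 0.82 and 1.56, and Unc13b, Erc2 and Ppfia2 were lower at every age, with log2 fold changes between -1.83 and -0.48. Rims2 and Unc13a were slightly higher and Erc1 was not called.

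Bsn had 1066, 1259, 1151 and 1207 CPM in input_TH at 5m and 3354, 3493, 3165 and 3694 CPM in input_SYN. Every SYN library was above every TH library, and the log2 fold change was 1.56 (SE 0.11, adjusted p = 7.72e-13). Pclo rose by 1.12 at 5m (SE 0.078), from a mean of 550 ± 50.9 to 1193 ± 113 CPM. Ppfia3, a liprin-alpha, had 166, 176, 185 and 175 CPM in input_TH at 5m and 498, 511, 454 and 413 CPM in input_SYN, a log2 fold change of 1.42 (SE 0.077, adjusted p = 1.42e-15) without overlap. For Rims1 the log2 fold change was 1.33 at 3w (SE 0.073), 1.00 at 5m and 0.82 at 18m.

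Unc13b went the other way. It had 113, 111, 101 and 109 CPM in input_TH at 5m and 31.4, 33.6, 31.0 and 35.1 CPM in input_SYN, so the groups lay far apart, with a log2 fold change of -1.72 (SE 0.10, adjusted p = 8.49e-15). The value was -1.83 at 3w and -1.59 at 18m. Erc2 fell short in SYN by a log2 fold change of -0.59 at 3w, -0.74 at 5m and -0.48 at 18m, and Ppfia2 by -0.86, -1.05 and -0.68. Erc1 had log2 fold changes of -0.03, -0.12 and 0.00 (adjusted p between 0.138 and 0.956). In input RNA 9 of 10 members were called at each age, 6 higher and 3 lower, at an adjusted p under 0.05. Of all genes tested, 71.0% were called at 3w (31.7% higher and 39.3% lower), 72.7% at 5m (32.6% and 40.1%) and 72.3% at 18m (32.9% and 39.4%), so a call as such was common, and the members' share of calls is not read as a result. The median log2 fold change of the members was 0.43, 0.23 and 0.30 against -0.18, -0.18 and -0.12 over all genes.

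In SC RNA the same comparison called 7 of 10 members at 3w, 4 higher and 3 lower (63.5% of all genes, 31.1% higher and 32.4% lower). It called 6 of 10 at 5m, 3 in each direction (67.8%, 32.1% and 35.8%), and 9 of 10 at 18m, 6 higher and 3 lower (62.1%, 29.9% and 32.2%). Unc13b was lower in SC_SYN by -1.44 at 3w (SE 0.11), -1.25 at 5m (SE 0.11) and -0.72 at 18m (SE 0.10), and Erc2 (-0.96, -1.07 and -0.47) and Ppfia2 (-0.998, -1.08 and -0.74) were lower at each age too. Bsn was higher by 0.54 at 3w (adjusted p = 0.00371), 0.97 at 5m and 1.45 at 18m. Its 4 libraries of SC_SYN at 18m had 3152, 3899, 3842 and 2011 CPM against 1143, 1267, 1185 and 1224 CPM in SC_TH, without overlap but with a wide spread in SC_SYN. Rims1 was higher by 0.91, 0.54 and 0.60, and Ppfia3 by 0.49, 0.63 and 0.76. Pclo was called at 3w (0.41, adjusted p = 0.0165) and 18m (0.91) and had 0.29 at 5m (adjusted p = 0.0805), where mouse 191 had 512 CPM and the other mice had 941, 1065 and 973 CPM. Without mouse 191 Pclo was at 0.52 at 5m (adjusted p = 0.000504). The calls of Bsn (0.38, adjusted p = 0.0622) and Pclo (0.27, adjusted p = 0.183) at 3w were lost without mouse 190.

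These directions depended on the scale in part. Unc13b, Erc2 and Ppfia2 stayed lower in SYN, and Bsn, Pclo, Rims1 and Ppfia3 stayed higher in input_SYN, under every alternative run. Their sizes were less stable across the runs that kept every mouse. Ppfia2 in input had weakest values of -0.25 (3w), -0.38 (5m) and -0.35 (18m) there, and strongest values of -1.43, -1.70 and -1.25. Its weakest value in SC at 3w was -0.41. The weakest value of Erc2 in input at 3w was -0.32, and that of Rims1 in input at 18m was 0.25. Unc13a and Rims2 were lower in SYN with library size in place of TMM at each age in both kinds of library. In SC at 3w, library size gave values just below 0 for Bsn (-0.00562) and Ppfia3 (-0.0597) and -0.13 for Pclo, and at 5m -0.0438 for Rims1, none of which was called. The calls of Unc13a and Rims2 in input at 5m were lost with DESeq2 (0.11 and 0.15, adjusted p = 0.195 and 0.0815). Ppfia3 in SC had 0.22 at 3w (adjusted p = 0.178) and 0.06 at 5m (adjusted p = 0.698) once the trend of fold changes with GC content and length was taken out, and Unc13a in SC at 18m had 0.14 (adjusted p = 0.249). The call of Rims2 in SC at 18m (0.23, adjusted p = 0.0432) was lost without mouse 190 (0.22, adjusted p = 0.0651) and in 6 of the other 11 fits that left out a mouse.

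**Figure D2:**
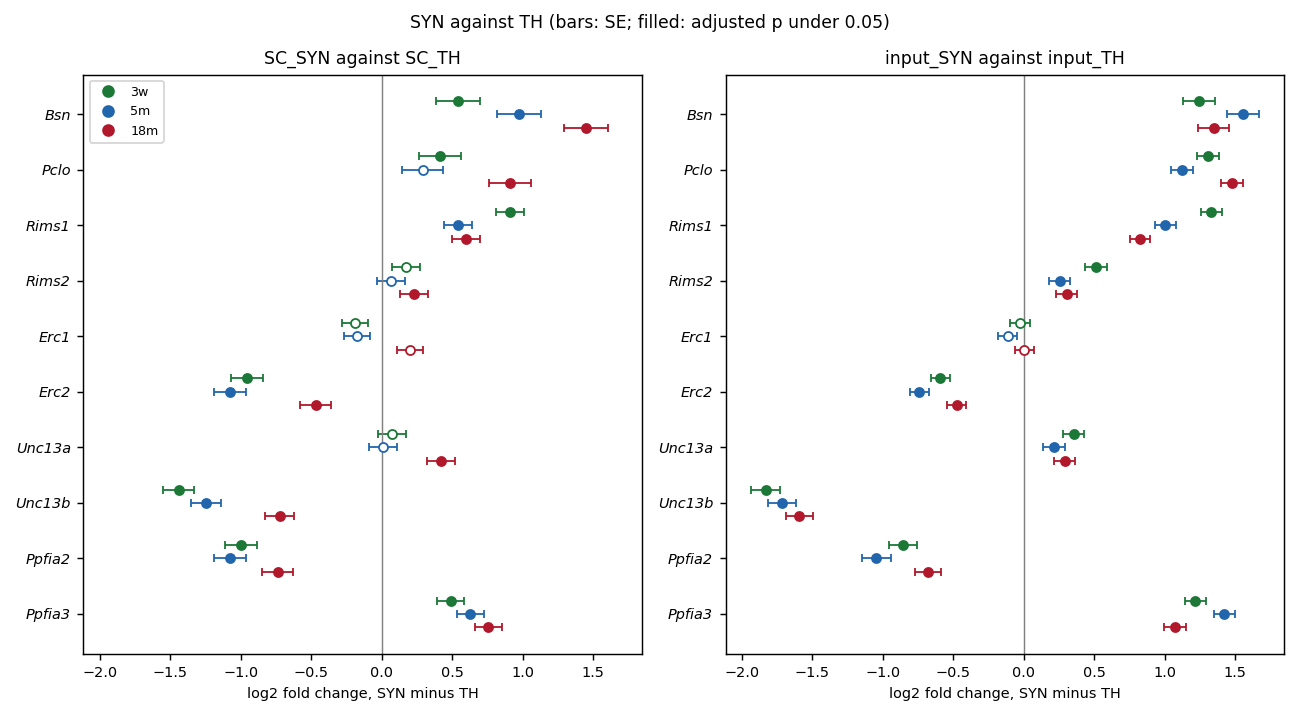
Log2 fold change of SYN over TH for each member at 3 ages, in SC RNA (left) and input RNA (right), with SE as bars and filled points for an adjusted p under 0.05. Unc13b, Erc2 and Ppfia2 lie left of 0 in all 6 comparisons, while Bsn, Pclo, Rims1 and Ppfia3 lie right of 0.

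The ratio of SC to input, which the study calls translational efficiency (TE), was compared within each compartment. In SYN, all 10 members had a negative log2 fold change of SC over input at 3w, at 5m and at 18m. Of them 7 of 10 were called at 3w, 5 of 10 at 5m and 3 of 10 at 18m, all of them lower. Of all genes tested, 18.5%, 20.0% and 12.6% were called in either direction, 9.5%, 10.3% and 6.7% lower and 9.04%, 9.66% and 5.88% higher. The median of the members was -0.43 at 3w, -0.38 at 5m and -0.22 at 18m, against 0.01, 0.01 and 0.02 over all genes. With 1 mouse left out, the member median ranged from -0.46 to -0.43, from -0.46 to -0.32 and from -0.27 to -0.21, with 8 to 10 members below 0 at 18m. With the GC and length trend taken out 9 of 10 were below 0 at 3w and at 5m. The 5 nuclear RNAs had medians of -1.04, -0.80 and -0.46 in the same comparison, with 3, 3 and 1 of them called lower, and the 6 astrocyte markers 0.39, 0.49 and 0.33, with 3, 4 and 3 called higher. Their part in the member values was not tested.

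Bsn showed the largest of these differences at 3w. Its input_SYN libraries had 3142, 2810, 2306 and 3034 CPM and its SC_SYN libraries 1581, 1228, 1518 and 1934 CPM, so every pellet library was below every input library, with a log2 fold change of -0.87 (SE 0.17, adjusted p = 0.000995). The value was -0.40 at 5m (adjusted p = 0.0944) and -0.07 at 18m (adjusted p = 0.861), where the groups overlapped. Rims1 was lower in SC_SYN at all 3 ages, by -0.53, -0.57 and -0.49 (SE 0.11 each). Rims2 (-0.43, -0.61 and -0.55) and Erc2 (-0.62, -0.78 and -0.46) were called at all 3 ages as well. For Erc2 at 5m the input libraries had 99.95, 95.4, 101.1 and 94.3 CPM and the pellets 44.7, 60.4, 66.2 and 60.7 CPM, without overlap (SE 0.12, adjusted p = 5.79e-05). Pclo was called at 3w (-0.54) and 5m (-0.48), Ppfia3 at 3w (-0.38) and 5m (-0.32), and Erc1 at 3w (-0.43). Unc13a (-0.25, -0.23 and -0.11), Unc13b (-0.15, -0.35 and -0.06) and Ppfia2 (-0.17, -0.08 and -0.10) were not called at any age. The calls of Pclo and Rims2 at 3w were lost without mouse 189 (adjusted p = 0.0651 for both), that of Pclo also without mouse 187 (adjusted p = 0.0548), those of Ppfia3 without mouse 187 (-0.33, adjusted p = 0.0660) or 188 (-0.37, adjusted p = 0.0512) at 3w and without mouse 191, 192 or 193 at 5m (adjusted p between 0.0742 and 0.128), and that of Erc2 at 18m without mouse 196 (-0.43, adjusted p = 0.0702) or 197 (-0.41, adjusted p = 0.0622). The call of Ppfia3 was also lost with no filter on low counts (-0.32 at 3w and -0.24 at 5m) and with the GC and length trend taken out, without and with the replicate block (-0.18 and -0.20 at 3w, -0.35 and -0.34 at 5m). With no filter on low counts 4 members were called at 3w. The call of Erc1 at 3w held in 6 of the 8 other settings that kept every mouse, with a weakest value of -0.26. Those of Rims2 at 3w and Pclo at 5m each held in 7 of 8. With the mouse as a replicate block Unc13a was called too, at -0.26 at 3w (adjusted p = 0.0354) and -0.24 at 5m (adjusted p = 0.0449).

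In TH the members took both directions. Pclo was higher in SC_TH than in input_TH at all 3 ages, by 0.43, 0.40 and 0.31 (SE 0.079 each). Its input_TH libraries at 3w had 525, 499, 500.0 and 536 CPM and its SC_TH libraries 624, 707, 762 and 655 CPM, which did not overlap. Ppfia3 was higher by 0.43 at 3w and 0.52 at 5m, and had 0.15 at 18m (adjusted p = 0.0601). Unc13b was lower at every age, by -0.49, -0.78 and -0.90. At 18m it had 97.9, 96.8, 104.5 and 91.1 CPM in input_TH and 51.1, 54.3, 52.7 and 49.0 CPM in SC_TH, again without overlap (SE 0.065, adjusted p = 3.99e-12). Erc2 was lower at each age (-0.18, -0.40 and -0.43), Rims2 at 5m (-0.37) and 18m (-0.43), and Erc1 at 3w (-0.19) and 18m (-0.40). Rims1 (-0.22) and Unc13a (-0.20) were lower at 18m, and Bsn was higher at 5m (0.23, adjusted p = 0.0130), a call lost without mouse 191 (0.19, adjusted p = 0.0520). Ppfia2 was within 0.05 of 0 at each age. In all, 5 of 10 members were called at 3w, 2 higher and 3 lower (52.8% of all genes, 26.1% higher and 26.6% lower), 6 of 10 at 5m, 3 in each direction (62.1%, 29.9% and 32.2%), and 7 of 10 at 18m, 1 higher and 6 lower (64.0%, 31.3% and 32.7%). Without mouse 190 those at 3w were 3, as Erc1 (adjusted p = 0.0574) and Erc2 (adjusted p = 0.0979) lost their calls, and without mouse 198 Unc13a lost its call at 18m (-0.15, adjusted p = 0.0716). In the 8 other settings that kept every mouse, the calls of Erc1 and Erc2 at 3w and of Bsn at 5m each held in 6. That of Unc13a at 18m held in 5, and its highest value there was 0.08. Whether SC over input differed between SYN and TH was not tested.

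With the GC and length trend taken out, Bsn in SC_TH against input_TH stood at 0.22 at 3w (adjusted p = 0.00581) and 0.28 at 18m (adjusted p = 0.00051), against -0.08 and -0.14 before. The summed level of the 5 nuclear RNAs also differed between these libraries, at 17690 CPM in input_TH and 11590 CPM in SC_TH at 3w, and at 16010 and 5302 CPM at 18m. Its part in the result was not tested.

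**Figure D3:**
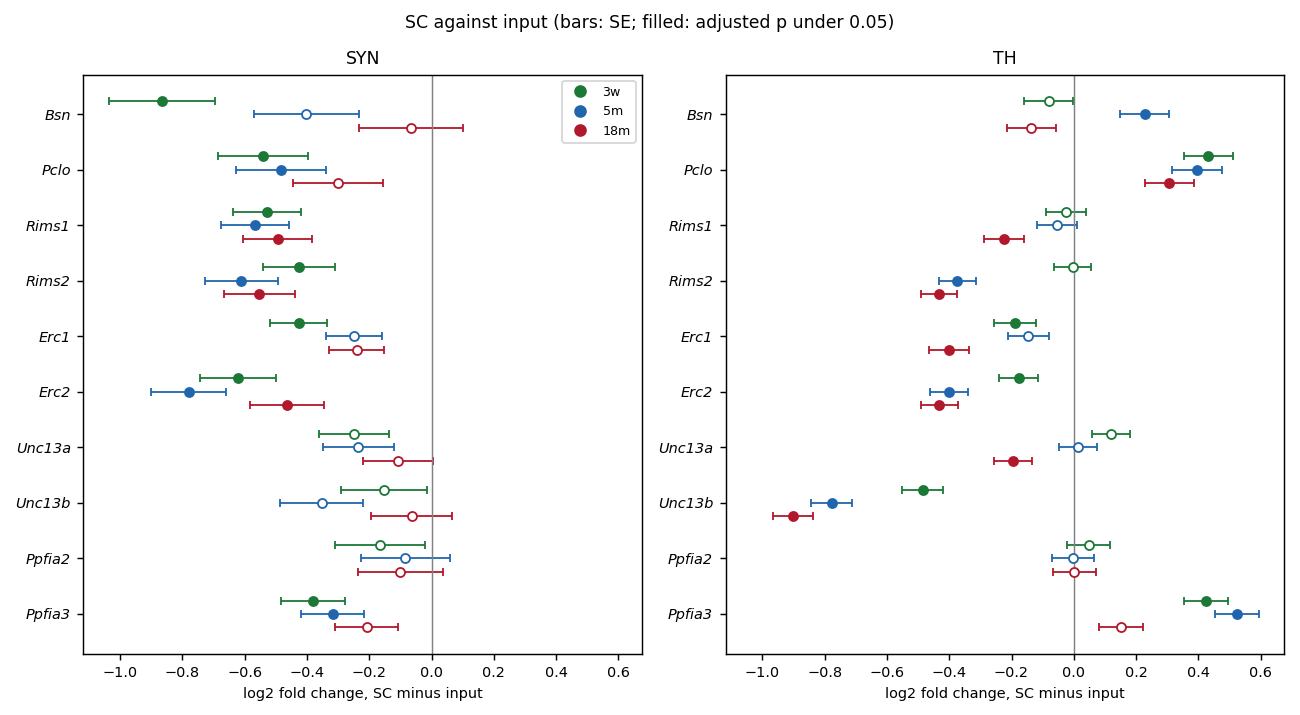
Log2 fold change of SC over input for each member at 3 ages, in SYN (left) and TH (right), with SE as bars and filled points for an adjusted p under 0.05. In SYN all 30 values lie below 0, whereas in TH Pclo and Ppfia3 lie above 0 and Unc13b and Erc2 below.

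Between 3w and 5m, the fall of Rims1 was the one age change of a member that was called in every fraction. In input_SYN Rims1 had 744, 805, 817 and 776 CPM at 3w and 470, 547, 462 and 456 CPM at 5m. No library of 5m reached the lowest of 3w, and the log2 fold change was -0.73 (SE 0.096, adjusted p = 0.000222). In SC_SYN it had 477, 595, 567 and 573 CPM at 3w and 254, 370, 362 and 348 CPM at 5m, also without overlap, with a log2 fold change of -0.77 (SE 0.13, adjusted p = 0.00267). In input_TH the libraries at 3w had 299, 320, 308 and 328 CPM and those at 5m 219, 251, 250.1 and 249 CPM, which did not overlap (log2 fold change -0.38, SE 0.055, adjusted p = 0.000237). In SC_TH they had 301, 305, 303 and 311 CPM at 3w and 218, 234, 244 and 235 CPM at 5m, again without overlap (log2 fold change -0.39, SE 0.068, adjusted p = 0.00132). The call of Rims1 held in every alternative run in all 4 fractions, each mouse left out in turn included. The fall was larger in SYN than in TH by 0.37 in SC (SE 0.14, unadjusted p = 0.0140, adjusted p = 0.457) and by 0.33 in input (SE 0.10, unadjusted p = 0.00357, adjusted p = 0.454), differences that did not pass the test over all genes.

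Bsn moved upward over the same interval in the pellets. In SC_SYN it had 1581, 1228, 1518 and 1934 CPM at 3w and 2197, 2673, 3092 and 2630 CPM at 5m, without overlap, and the log2 fold change was 0.71 (SE 0.19, adjusted p = 0.0373). That call was lost when any of mice 187, 188, 189, 192, 193 and 194 was left out, with log2 fold changes between 0.60 and 0.73 there, and with the GC and length trend taken out (0.32, adjusted p = 0.134). In SC_TH Bsn rose by 0.29 (SE 0.081, adjusted p = 0.0196), with overlap between the groups, a call lost without mouse 187, 188 or 194 (adjusted p between 0.0652 and 0.0755). Bsn had a log2 fold change of 0.24 in input_SYN (adjusted p = 0.338) and -0.04 in input_TH (adjusted p = 0.778).

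Other members fell in TH. Erc1, whose promoter is shown above, had 91.6, 88.5, 91.9 and 89.3 CPM in input_TH at 3w and 77.7, 76.5, 77.2 and 78.7 CPM at 5m. The groups did not overlap, and the log2 fold change was -0.23 (SE 0.045, adjusted p = 0.00304). In SC_TH, Unc13b (-0.32), Rims2 (-0.27) and Erc2 (-0.25) fell, with adjusted p between 0.0101 and 0.0198, and the call of Erc2 was lost without mouse 187 (adjusted p = 0.0544) or 188 (adjusted p = 0.0659). The members called were 2 of 10 in SC_SYN (8.05% of all genes), 5 of 10 in SC_TH (17.9%), 1 of 10 in input_SYN (3.22%) and 2 of 10 in input_TH (11.8%). Their median log2 fold change was -0.16, -0.15, -0.22 and -0.04, against values within 0.02 of 0 over all genes. Oligodendrocyte markers moved over the same interval, the summed level of 6 of them standing at 5635 CPM at 3w and 2209 CPM at 5m in input_TH, at 9274 and 3250 CPM in input_SYN and at 9208 and 3496 CPM in SC_SYN. The 7 neuronal markers stood at 3411 and 3286 CPM in input_TH and at 9552 and 8853 CPM in input_SYN. The part of either in the member changes was not tested.

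Between 5m and 18m fewer members were called. In SC_TH Erc1 had 67.9, 70.4, 70.2 and 71.5 CPM at 5m and 44.4, 53.7, 54.8 and 59.1 CPM at 18m, so each library of 18m was lower, with a log2 fold change of -0.38 (SE 0.083, adjusted p = 0.0230). The call was lost when any of mice 193 to 197 was left out, with log2 fold changes between -0.40 and -0.30 there. In input_TH Ppfia3 rose from 166, 176, 185 and 175 CPM to 201, 229, 206 and 226 CPM, without overlap (log2 fold change 0.30, SE 0.054, adjusted p = 0.00366), and Bsn rose by 0.19 (SE 0.064, adjusted p = 0.0493), with overlap and a call that was lost in 9 of 12 fits that left out a mouse, with adjusted p between 0.0508 and 0.151. With the GC and length trend taken out neither Ppfia3 (0.11, adjusted p = 0.297) nor Bsn (0.04, adjusted p = 0.764) was called. In all, 1 of 10 members was called in SC_TH (2.17% of all genes) and 2 of 10 in input_TH (15.5%).

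In SYN 0 of 10 members were called between 5m and 18m by edgeR, in SC (0.014% of all genes) and in input (0.139%). At an unadjusted p under 0.05 there were 2 members in each, Erc2 and Pclo in SC_SYN and Pclo and Ppfia2 in input_SYN. Of all genes, 2474 of 14240 in SC_SYN and 1214 of 12975 in input_SYN had such a p, so these member counts are not read as a result. DESeq2 called 1 member in SC_SYN (Erc2, 0.51, adjusted p = 0.0400) and 0 in input_SYN. All 10 log2 fold changes were above 0 in SC_SYN, with a median of 0.26 against 0.01 over all genes. The SC_SYN library of mouse 191 was the lowest of the 4 at 5m for 9 of 10 members, all but Ppfia3, and 0.315% of its counts lay on the members against 0.402% to 0.445% in the other libraries of that group. Erc2 had 44.7, 60.4, 66.2 and 60.7 CPM at 5m and 96.3, 74.9, 79.6 and 73.2 CPM at 18m, without overlap (log2 fold change 0.52, SE 0.15, adjusted p = 0.170). Pclo had 512, 941, 1065 and 973 CPM at 5m and 1272, 1241, 1311 and 1024 CPM at 18m, which overlapped (log2 fold change 0.51, SE 0.18, adjusted p = 0.216). The median ranged from 0.17 (without mouse 195) to 0.31 (without mouse 198), with 7 to 10 members above 0 and 7 without mouse 195, and was 0.19 with the GC and length trend taken out, where 7 of 10 were above 0. The level of the 5 nuclear RNAs in SC_SYN was 1427 ± 548 CPM at 5m and 2661 ± 577 CPM at 18m, and its part was not tested.

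**Figure D4:**
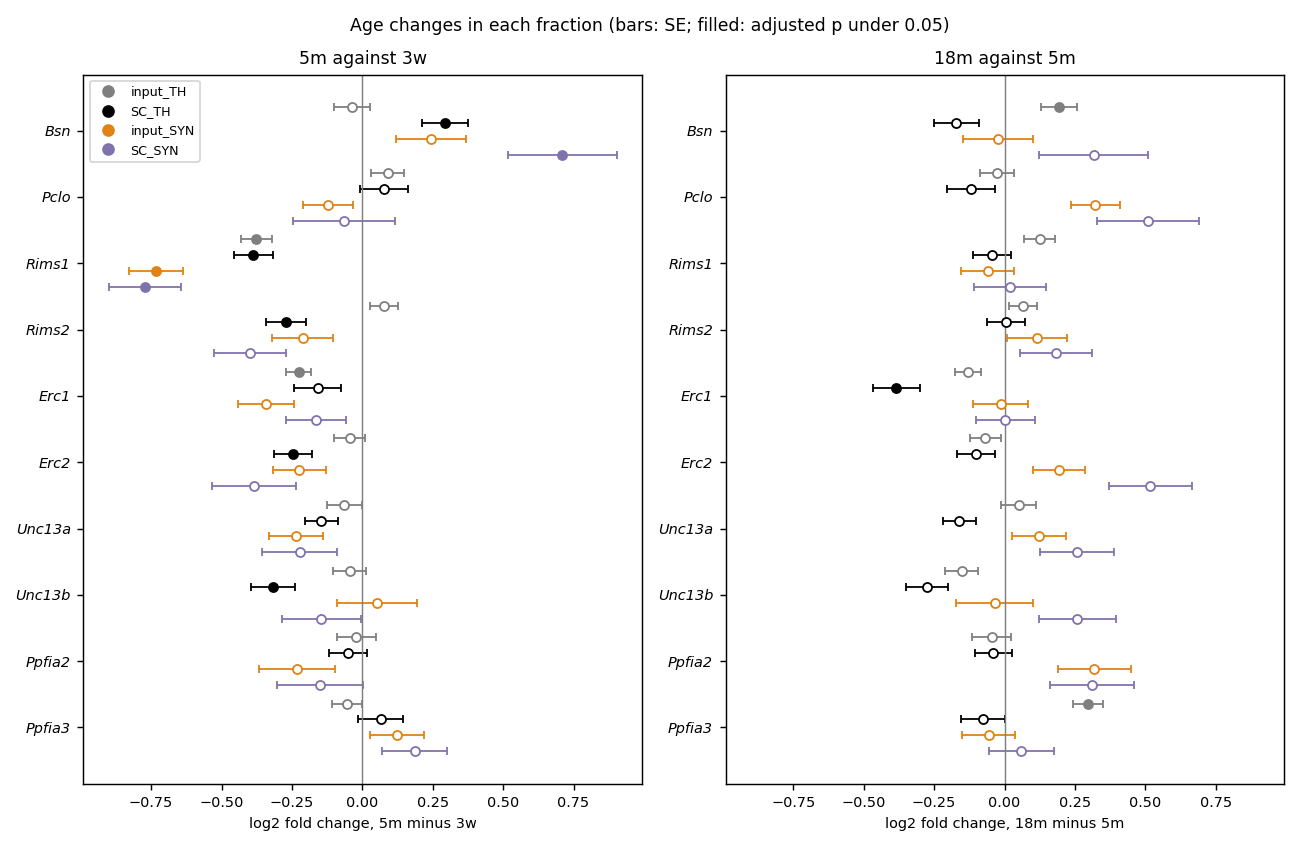
Log2 fold change of each member between 3w and 5m (left) and between 5m and 18m (right) in the 4 fractions, with SE as bars and filled points for an adjusted p under 0.05. Rims1 has filled points left of 0 in all 4 fractions on the left, and on the right only Erc1 in SC_TH and Bsn and Ppfia3 in input_TH are filled.

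Whether an age change differed between SYN and TH was tested as an interaction. It was called in 0 of 10 members in each of the 4 tests by edgeR, with 1 member at an unadjusted p under 0.05 in SC at 5m against 3w (0.0301% of all genes were called), 7 in SC at 18m against 5m (0.0%), 2 in input at 5m against 3w (0.0224%) and 4 in input at 18m against 5m (2.42%). The shares in brackets use the adjusted p, so they are no background for these member counts. Over all genes, an unadjusted p under 0.05 was reached by 1324 of 16630, 2855 of 16630, 1437 of 17860 and 3168 of 17860. For the same 4 tests in turn, DESeq2 called 0, 2, 0 and 2 members. In SC at 18m against 5m, the value of SYN minus TH was above 0 in all 10 members, none of them past the test. Its median was 0.39 against 0.01 over all genes, and it ran from 0.05 for Rims1 to 0.62 for Pclo (SE 0.21, adjusted p = 0.171). Without mouse 191 it was -0.03 for Rims1 and 0.39 for Pclo, and with the GC and length trend taken out 0.32 for Pclo. In the same test the 5 nuclear RNAs were all above 0 with a median of 0.72 and the 6 oligodendrocyte markers had a median of -0.48, none of them called by edgeR, with 4 of each list at an unadjusted p under 0.05. Their part was not tested. Erc2 (0.61, SE 0.16, adjusted p = 0.125) and Unc13b (0.52, SE 0.15, adjusted p = 0.128) were the members that DESeq2 called (adjusted p = 0.0201 and 0.0218). With 1 mouse left out, the median ranged from 0.28 (without mouse 195) to 0.49 (without mouse 198), and 9 or 10 members were above 0. It was 0.25 with the GC and length trend taken out, with 9 of 10 above 0. In input at 18m against 5m, Pclo had 0.35 (SE 0.11, adjusted p = 0.0787) and Ppfia3 -0.35 (SE 0.11, adjusted p = 0.0730).

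The change of SC over input with age was called in 0 members in SYN by edgeR, with 0 at an unadjusted p under 0.05 and 0 by DESeq2, at both intervals (0.0% of all genes). Bsn had 0.46 (SE 0.24) at 5m against 3w and 0.34 (SE 0.24) at 18m against 5m, the latter 0.14 without mouse 197 and 0.58 without mouse 198. In TH 1 of 10 members was called at each interval (2.33% and 1.78% of all genes). Rims2 in TH fell relative to its input by 0.37 on the log2 scale at 5m against 3w (SE 0.084, adjusted p = 0.0218). Its input_TH libraries went from 94.6, 89.9, 90.7 and 96.8 CPM to 91.0, 100.4, 102.9 and 99.5 CPM while SC_TH went from 95.3, 98.1, 84.5 and 89.6 CPM to 75.4, 79.5, 75.6 and 73.3 CPM. The call was lost without mouse 187 (adjusted p = 0.0782), 188 (adjusted p = 0.131) or 194 (adjusted p = 0.115). It was also lost with the GC and length trend taken out, and held in 6 of the 8 other settings that kept every mouse. Ppfia3 fell by 0.37 at 18m against 5m (SE 0.099, adjusted p = 0.0479), a call lost in 7 of 12 fits that left out a mouse and with the GC and length trend taken out (-0.16, adjusted p = 0.563). The 5 nuclear RNAs fell in SC_TH over both intervals, from 11590 to 8700 and 5302 CPM, against 17690, 17420 and 16010 CPM in input_TH, and their part was not tested.

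Ratios of paralogs within a library do not depend on the scaling of libraries, but no GC or length trend was removed from them. Their size depends on the exonic lengths used, whereas the difference of a ratio between libraries does not. The GC content of the longest transcript was 40.66% for Ppfia2 and 60.94% for Ppfia3, and 44.77% for Unc13b and 55.06% for Unc13a. It was 45.45% for Pclo and 59.76% for Bsn, 47.42% for Rims1 and 48.94% for Rims2, and 50.4% for Erc1 and 46.51% for Erc2. The part of GC content in the ratios was not tested. Unc13a exceeded Unc13b per kb of exon by 2.95 ± 0.0679 on the log2 scale in input_TH at 3w (SD, n = 4), by 3.55 ± 0.132 in SC_TH, by 5.17 ± 0.213 in input_SYN and by 5.06 ± 0.114 in SC_SYN. In each of the 12 mice the ratio was higher in SYN than in TH, by between 1.495 and 2.54 in input and between 1.10 and 1.74 in SC. Ppfia3 exceeded Ppfia2 by 1.38 in input_TH at 5m, a mean log2 ratio of Ppfia2 to Ppfia3 of -1.38 ± 0.0505, and that ratio was -3.85 ± 0.149 in input_SYN and lower in SYN in 12 of 12 mice. Rims1 over Rims2 was higher in SYN in 12 of 12 mice, by 0.69 ± 0.17 in input and 0.53 ± 0.18 in SC (SD over 12 mice), and Erc1 over Erc2 in 12 of 12 mice, by 0.55 ± 0.16 and 0.79 ± 0.22. Bsn over Pclo was higher in SYN in 10 of 12 mice in SC and 7 of 12 in input. Within each family except Bsn and Pclo, the 2 genes thus differed in their distribution between SYN and TH in the same direction in every mouse.

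With age, the log2 ratio of Rims1 to Rims2 went from 3.07 ± 0.0474 at 3w to 2.54 ± 0.155 at 5m in input_SYN. It stood at 2.97 ± 0.105 and 2.59 ± 0.0663 in SC_SYN, and at 2.25 ± 0.0710 and 1.79 ± 0.0278 in input_TH. Each of these changes came with p = 0.0286 in an exact two-sided permutation test, the smallest p that 4 against 4 mice can give. In SC_TH the groups overlapped, and the change was -0.12 (p = 0.171, exact permutation test). In SC_SYN it stood at 2.43 ± 0.0918 at 18m (p = 0.0286, exact permutation test). The log2 ratio of Bsn to Pclo in SC_SYN went from 1.31 ± 0.292 at 3w to 2.14 ± 0.308 at 5m, higher in 16 of 16 pairs of libraries (p = 0.0286, exact permutation test). Erc1 over Erc2 in SC_SYN went from -0.65 ± 0.230 at 5m to -1.18 ± 0.112 at 18m (p = 0.0286, exact permutation test). Of 40 such tests 12 had this p, and 0 passed after Benjamini-Hochberg adjustment (adjusted p = 0.0952, exact permutation tests).

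**Figure D5:**
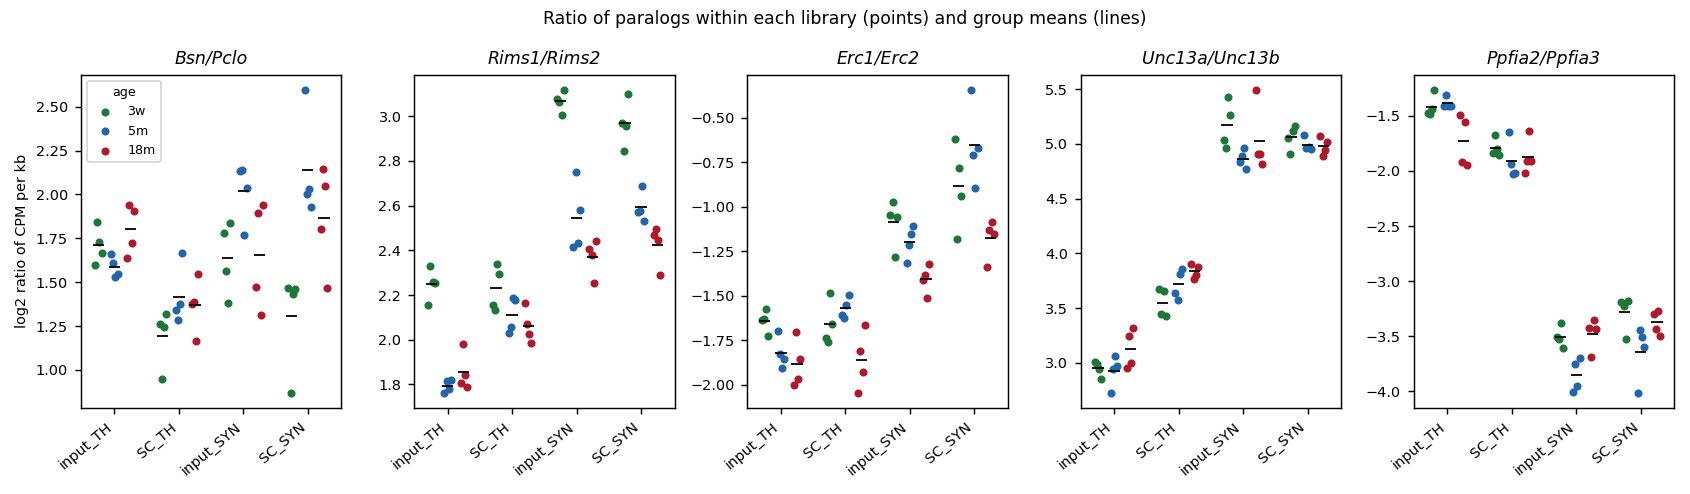
Log2 ratio of CPM per kb for the 5 paralog pairs in the 48 libraries, by fraction and age, with each point 1 library and each line the mean of 4 mice. Unc13a over Unc13b and Rims1 over Rims2 are higher in SYN than in TH, Ppfia2 over Ppfia3 is lower, and Rims1 over Rims2 is lower at 5m than at 3w.

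The members' neighbours in the pathway were described with a list of 39 active zone partners and a list of 25 genes of the fusion machinery. In SYN, 8 of 39 partners and 2 of 25 fusion genes were lower in SC than in input at 3w, where 9.5% of all genes were, with medians of -0.06 and -0.08 against -0.43 for the members. In TH, 19, 23 and 23 of 25 fusion genes were higher in SC than in input at 3w, 5m and 18m. Their medians were 0.51, 0.60 and 0.62, and 26.1%, 29.9% and 31.3% of all genes were higher. Among them were Snap25, a SNARE protein of the plasma membrane (1.07 at 3w), and Syp, a vesicle protein (1.07 at 5m). Of the 7 neuronal markers, which include Snap25, 6, 7 and 7 were higher in the same comparisons (medians 0.55, 0.71 and 0.62). All 6 astrocyte markers were higher too, at each age. The partners took both directions in TH, with 14 higher and 11 lower at 3w (26.1% and 26.6% of all genes). Tspoap1, a RIM-binding protein, stood at -0.85. In input_SYN against input_TH at 3w, 15 of 25 fusion genes were higher, 6 lower and 4 not called (median 0.62), with Syp at 2.68, where 31.7% of all genes were higher and 39.3% lower. Of the partners 18 were higher and 15 lower, and Nrxn2, a presynaptic adhesion protein, stood at 1.98. Another Munc13 gene, Unc13c, was higher in SC_SYN than in SC_TH at 3w (1.63) and at 5m (1.59), where the member Unc13b was lower.

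Between 3w and 5m, partners changed in both directions, as the members did in SC, while the members called in input only fell. In SC_SYN 3 of 38 partners rose and 3 fell, where 4.02% of all genes rose and 4.02% fell. In input_SYN 2 rose and 2 fell (1.28% and 1.94% of all genes), and in input_TH 2 of 39 rose and 10 fell (4.76% and 7.05%). Git1, which binds liprin-alpha and piccolo, rose in all 4 fractions, in SC_SYN (1.34, adjusted p = 0.00218), input_SYN (0.87), SC_TH (0.63) and input_TH (0.28). Rims3, a short RIM gene, rose in input_SYN (0.72), SC_TH (0.64) and input_TH (0.56), where the member Rims1 fell. Ptprd, a receptor phosphatase that binds liprin-alpha, fell in SC_SYN (-0.63), input_SYN (-0.47) and SC_TH (-0.46). Stx1a, a syntaxin, fell in all 4 fractions, in SC_SYN (-0.68), input_SYN (-0.54), SC_TH (-0.50) and input_TH (-0.50). Syt2, a calcium sensor of fast release, rose in all 4 fractions, by between 0.33 and 0.58. Between 5m and 18m, 0 of 38 partners and 0 of 25 fusion genes were called in SC_SYN by edgeR (0.014% of all genes). At an unadjusted p under 0.05 there were 8 and 7, beside 2474 of 14240 genes. The lists were not counted with DESeq2.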

How the data were processed

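RNA-seq libraries from the input and sucrose cushion (SC) fractions of TH and SYN of 12 mice were analysed, 48 in all. Per the labels and the submitters' processing notes, the authors prepared stranded, rRNA-depleted libraries with UMI adaptors, extracted reads with bcl2fastq 2.20.0.422, mapped them to GRCm38 with TopHat2 2.1 and counted them per gene with featureCounts. The annotation was release 85. The strand setting of the counting of these libraries is not given in the sources used here. Whether UMIs removed duplicates is not given in the sources used here. The deposited values are raw counts for 48526 genes, without normalization, and 48144 identifiers matched GENCODE M21 (the others carry 0.0596% of counts). All columns matched a sample.

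The test was the quasi-likelihood F test of edgeR 4.0.16 in R 4.3.3, applied to TMM-scaled counts of genes kept by filterByExpr, with Benjamini-Hochberg adjustment over all genes tested and a threshold of 0.05. SYN against TH and SC against input were fitted over 24 libraries each, ages within a fraction over 12. These fits had no term for the mouse, so they ignored the pairing of libraries from the same mouse. Called means an adjusted p under that threshold. The 10 members passed the filter in every fit. CPM values use TMM over all libraries. Code was tested on simulated data. The alternatives were DESeq2 1.42.0, library size, no filter or at least 10 counts, no mitochondrially encoded genes, GC and length trends removed (loess, span 0.5), other sets of groups, a replicate block and each mouse left out.

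The 4 libraries that share a number come from one mouse, which pairs them. The correlation of their deviations from group means over 9651 genes had medians between -0.081 and 0.250 for the 6 pairs of fractions. Over the 72 pairs of libraries of one group, chi-square per degree of freedom was 1.98 to 32.2, above counting noise.

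Members and lists were chosen with earlier results of these data known. All members were named, and from the lists of partners and fusion genes up to 2 genes per direction with the largest change, an adjusted p under 0.05 and no overlap between groups could be named. Protein data were not analysed here.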

Additional observations from a re-analysis of the deposited data

Results flagged for a closer look

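In groups of 4 mice, 1 library lay apart from the other 3 in 12 of 180 groups tested, where chance gives about 9 (1 in 20). The values below are the gap to the nearest library as a share of the group's range. Mouse 191 at 5m was low in input_TH for Rims1 (0.949; 219 CPM against 249 to 251) and Unc13a (0.922; 418 CPM against 470 to 474). In SC_SYN at 5m the same mouse was high for the log2 ratio of Bsn to Pclo (0.845; 2.60 against 1.93 to 2.03) and of Unc13a to Unc13b (0.891; 5.08 against 4.96 to 4.97). Mouse 192 was high for Rims1 in input_SYN at 5m (0.842; 546 CPM against 456 to 470) and for Ppfia2 over Ppfia3 in input_TH at 5m (0.970). Mouse 189 was low for Erc1 in input_SYN at 3w (0.849; 78.4 CPM against 90.0 to 92.1) and for Ppfia2 over Ppfia3 in SC_SYN at 3w (0.862). Mouse 195 was high at 18m in input_SYN for Unc13a (0.883; 637 CPM against 554 to 564) and for Unc13a over Unc13b (0.868). Mouse 188 was low for Bsn over Pclo in SC_SYN at 3w (0.947; 0.871 against 1.43 to 1.47), and mouse 198 for Rims2 in SC_TH at 18m (0.844; 71.0 CPM against 76.4 to 77.4).

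The difference of SC over input in TH changed between ages, by a test of the interaction, for Rims2 at 5m against 3w (-0.37) and for Ppfia3 at 18m against 5m (-0.37). With a mouse left out, these calls held in 9 and 5 of 12 fits. Neither held with the GC and length trend taken out.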

How the results depend on the processing

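Of 5600 fits of a member in a comparison under an alternative, 5351 kept the side of the threshold, 200 of them with a change of sign where neither value was past it, 121 lost a call, 96 gained one and 32 turned the direction of a value called in either fit. The cause was not tested. With library size in place of TMM, SYN against TH in SC turned for Pclo (-0.13), Ppfia3 (-0.0597), Unc13a (-0.48), Bsn (-0.00562) and Rims2 (-0.38) at 3w, Rims1 (-0.0438), Unc13a (-0.57) and Rims2 (-0.52) at 5m, and Erc1 (-0.33), Unc13a (-0.11) and Rims2 (-0.30) at 18m. In input it turned for Unc13a (-0.21) and Rims2 (-0.0572) at 3w, Unc13a (-0.44) and Rims2 (-0.40) at 5m, and Erc1 (-0.57), Unc13a (-0.28) and Rims2 (-0.26) at 18m. With at least 10 counts in every library, which tests fewer genes, input turned for Unc13a (-0.0959) and Rims2 (-0.0566) at 5m and for Erc1 (-0.29) and Unc13a (-0.00185) at 18m. With the GC and length trend removed, without and with the replicate block, values turned for Unc13a in SC_SYN against SC_TH at 5m (-0.249 and -0.254) and, in SC_TH against input_TH, for Bsn at 3w (0.223 and 0.221) and 18m (0.2821 and 0.2819), Ppfia2 at 5m (0.3196 and 0.3207) and Unc13a at 18m (0.0753 and 0.0763).

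Counts of members called moved by over 1.5 times as follows. SC_SYN against input_SYN at 3w went from 7 to 4 with no filter. SC_SYN at 5m against 3w went from 2 to 4 with all 48 libraries in one fit (1 to 2 with a mouse left out), and at 18m against 5m from 0 to 1 with DESeq2 and 2 with all 48 libraries. SC_TH at 5m against 3w went from 5 to 3 with no filter and with all 48 libraries (3 to 5 with a mouse left out), and at 18m against 5m from 1 to 3 with DESeq2 and 0 with only the groups compared (0 to 1). SC_TH against input_TH at 3w ranged from 3 to 5 with a mouse left out. Input_SYN at 5m against 3w went from 1 to 2 with DESeq2, with the GC trend removed and with all 48 libraries. Input_TH at 5m against 3w went from 2 to 1 with all 48 libraries, and at 18m against 5m from 2 to 0 with the GC trend removed and with all 48 libraries and to 1 with only the groups compared (1 to 2 with a mouse left out). The age change in SYN minus TH at 18m against 5m went from 0 to 2 with DESeq2 in SC, and in input to 2 with DESeq2 or at least 10 counts and 1 with library size. TE in TH at 5m against 3w went from 1 to 2 with DESeq2 and library size and to 0 with the GC trend removed (0 to 2 with a mouse left out). At 18m against 5m it went from 1 to 2 with DESeq2, no filter, at least 10 counts or no mitochondrially encoded genes, and to 0 with library size, the GC trend removed, or the replicate block with the GC trend removed (0 to 2).

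The replicate block alone gave 8 members in SC_SYN against input_SYN at 3w (7 without the pairing) and 6 at 5m (5 without it). The 12 pair ratio tests with p = 0.0286 (exact permutation) stayed 12 with 0.5 counts added. With a mouse left out their smallest possible p is 0.0571, so the exact permutation test cannot pass, and 96 of 96 differences kept their sign. Input_SYN was the shallowest fraction, and Unc13b had as few as 39 counts there.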

Other observations

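Among 9029 genes with a mean of at least 10 CPM, the 3 whose 12 group means of log2 CPM were most like the mean profile of the 10 members were Nfyb (Pearson r 0.958), Grk5 (0.951) and Pitpnb (0.939). The members' profiles themselves fell apart. Across the same 12 group means r was 0.952 for Pclo and Ppfia3, 0.935 for Bsn and Ppfia3, and 0.923 for Unc13b and Ppfia2, but -0.924 for Unc13b and Ppfia3 and -0.891 for Ppfia2 and Ppfia3. The 12 points share mice and the difference between SYN and TH, and the values are a description.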
